A study of Saccharomyces cerevisiae with 8 samples.

Results

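The 5.8S rRNA and domain I of the 25S rRNA of yeast were followed nucleotide by nucleotide in purified precursors of the large ribosomal subunit (LSU). The members are all 158 nucleotides of 5.8S rRNA and nucleotides 1 to 656 of 25S rRNA, 814 in all, chosen by position alone. The deposited table lists 10000 nucleotides of the rDNA region, of which 3786 belong to 5.8S rRNA, the spacer ITS2 or 25S rRNA. On chromosome XII of the R64 assembly, the first annotated rDNA repeat places 5.8S rRNA (RDN58-1) at 455414 to 455571 and these 656 nucleotides of RDN25-1 at 454526 to 455181, both read from the reverse strand. The repeat is present in many near-identical copies, and reads from the copies cannot be told apart.

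The 5.8S rRNA is the small partner of 25S rRNA. In the precursor both are parts of one chain, joined by ITS2, and after ITS2 has been removed they remain base paired, with domain I built partly from these shared helices. The 3′ end of 5.8S rRNA pairs with the 5′ end of 25S rRNA, next to the place where ITS2 leaves the particle. Domain I lies at the solvent side around the exit of the peptide tunnel, where rpL35 binds and rpL27 sits nearby. The protein rpL5 belongs to the central protuberance at another end of the subunit and carries the 5S rRNA with it. In a tethered nuclease assay, micrococcal nuclease (MNase) is fused to such a protein and stays silent until calcium is added, when it cuts RNA within its reach. A cut leaves a new 5′ end at which reverse transcriptase falls off the template.

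27SB-preLSUs, nuclear particles in which 5.8S rRNA, ITS2 and 25S rRNA are still joined, came from 6 litre cultures and were purified with Noc3-TAP as bait. 25S-preLSUs, late cytoplasmic particles with ITS2 removed, came from 2 litre cultures with Lsg1-TAP as bait. In each purification, 1 strain expressed MNase-HA-rpL5, 1 MNase-HA-rpL27, 1 MNase-HA-rpL35 and 1 no MNase, all in the S288c background. The library without MNase is also called the control of its purification. The tagged purification factor was present in all strains of a purification, those without MNase included. The fusions were expressed from a plasmid under the RPS28 promoter in strains whose chromosomal copies of the respective gene were deleted, so that the fusion was the only source of this protein. Each of the 8 libraries stands alone in its condition, so there is no spread between replicates and no test. Comparisons below rest on fixed limits of size and on the authors' noise estimate, a single value per nucleotide and purification for stops that random priming alone would give.

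The termination to coverage ratio (TCR) is, among the estimated unique cDNA fragments that cover a nucleotide, the share ending at it. Unless a single nucleotide is named, TCR values below are in percent for a nucleotide with its 2 direct neighbours, as the probability of a stop at any of these 3 positions. The authors' noise estimate is instead the highest TCR of a single position, within a short region, over their simulated data. Values of 3 nucleotides set against it are therefore not like for like, and multiples of the noise depend on this choice. The coverage behind a value is not listed, and its counting error was not worked out here. Values in sparsely read stretches may rest on few cDNAs. No rRNA sequence is printed, since no genome sequence was used here, and bases are given only where the study names them.

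How many nucleotides of 5.8S rRNA had a listed stop differed strongly between the purifications. In 27SB-preLSUs, 66 to 84 of the 158 nucleotides of 5.8S rRNA were listed at 0 in a library. In 25S-preLSUs this was the case for 145 to 149 nucleotides. The smallest cDNA insert kept by the authors was 75 nucleotides, so a cDNA made on free 5.8S rRNA could end no further along than nucleotide 84. Beyond this nucleotide, 31.1% to 40.5% of positions were listed at 0 in 27SB-preLSUs and 94.6% to 97.3% in 25S-preLSUs. Up to it, 51.2% to 66.7% were at 0 in 27SB-preLSUs and 88.1% to 92.9% in 25S-preLSUs, so few stops were listed in the first stretch there as well. A listed 0 means that no stop was counted. Without the coverage it does not tell whether the nucleotide was read. Values of 5.8S rRNA are therefore described for 27SB-preLSUs first.

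The noise estimate of 5.8S rRNA had a median of 3.56% for 27SB-preLSUs and 4.26% for 25S-preLSUs, against 1.47% and 1.32% for domain I. Within domain I, noise was lowest between nucleotides 301 and 400, with a median of 0.221% for 27SB-preLSUs and 0.149% for 25S-preLSUs. Between 401 and 500 it was highest, with medians of 3.88% and 2.64%. In the latter stretch 78 to 87 of 100 nucleotides were listed at 0 in a library of 27SB-preLSUs and 53 to 65 in one of 25S-preLSUs. The same insert limit means that a cDNA ending between nucleotides 571 and 644 had to span the methylated A645, so stops there were read only from cDNAs that had passed it.

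Some libraries stood apart at stops that every library showed. In domain I, 21 stops exceeded the noise in all 8 libraries, and their median TCR was 10.3% in the 25S-preLSU library without MNase, against 6.73%, 4.33% and 7.89% with MNase-rpL5, MNase-rpL27 and MNase-rpL35. This library had the highest value of its purification at 15 of the 21 stops and the lowest at 3. The lowest were at 252, beside the cut near 250 described below, and at 618 and 642, named below as weaker sites. The 21 also include 4 and 648, beside the 5′ end and A645, so the set is not free of cuts and known stops. The median ratio of its value to that of the fusion was 1.83 for MNase-rpL5, 3.07 for MNase-rpL27 and 1.75 for MNase-rpL35. In 27SB-preLSUs the library without MNase was highest at 6 of the 21 stops and lowest at 2, with median ratios of 0.873, 1.31 and 1.34. In the rest of 25S rRNA, with 42 such stops, the 25S-preLSU library without MNase was highest at 24 and lowest at 12. Its median ratios there were 1.86 to MNase-rpL5, 2.22 to MNase-rpL27 and 1.16 to MNase-rpL35. The part of this difference in the results below was not tested, and calls are therefore also given against the other library without MNase.

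**Figure D1:**
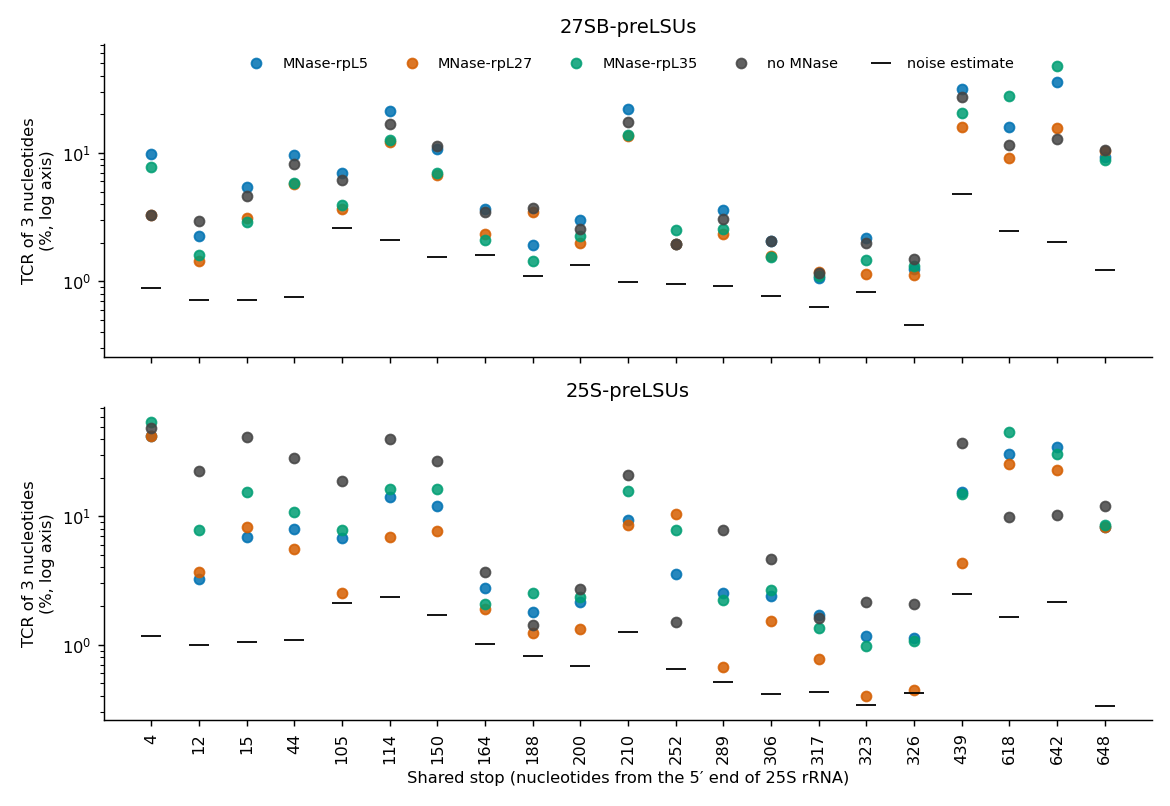
TCR of 3 nucleotides in percent, on a log axis, at the 21 stops of domain I (nucleotides from the 5′ end of 25S rRNA) that exceeded the noise in all 8 libraries, by library, with the noise estimate as a dash. In 25S-preLSUs the library without MNase was highest at 15 stops, but not at 4, 188, 252, 317, 618 and 642.

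Libraries also resembled each other in pairs, a pattern noticed in the values. In 27SB-preLSUs, among 124 nucleotides of 5.8S rRNA and domain I with a TCR of at least 5% and above the noise in some library, the values with MNase-rpL27 and without MNase both exceeded 2 times those with MNase-rpL5 and MNase-rpL35 at 20. Of these, 17 lay in 5.8S rRNA and 3 just behind A645. The opposite held at 6 nucleotides, all of them in domain I before A645. Of the other pairings, MNase-rpL27 and MNase-rpL35 stood above both other libraries at 9 of the 124, 6 of them in 5.8S rRNA, and each further one at 2 or fewer. In the rest of 25S rRNA the respective counts were 57 and 5 of 200 nucleotides. In 25S-preLSUs another pair, MNase-rpL35 and the control, stood above the others at 7 of 71 nucleotides, and at 44 of 203 in the rest of 25S rRNA, while MNase-rpL27 and MNase-rpL35 did so at 10 and 13. In 27SB-preLSUs, a site at which MNase-rpL5 and MNase-rpL35 stand above the other libraries follows the same pairing, and its share in such a site was not tested.

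Stops that need no nuclease mark known features of the RNA and were found in every library in which the respective end exists. At the 5′ end of 5.8S rRNA, the window centred on nucleotide 1 had a TCR of 73.5% with MNase-rpL5, 67.3% with MNase-rpL27, 72.2% with MNase-rpL35 and 59.2% in the control in 27SB-preLSUs. In 25S-preLSUs the corresponding values were 69.2%, 79.4%, 81.4% and 78.6%. The mature 5′ end of 5.8S rRNA was thus seen in both precursors, and the order of the libraries differed between them.

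At the 5′ end of 25S rRNA the precursors were far apart. In 25S-preLSUs the window centred on nucleotide 2 had 93.1% with MNase-rpL5, 92.8% with MNase-rpL27, 91.1% with MNase-rpL35 and 92.7% in the control. In 27SB-preLSUs the same window had 10.8%, 3.73%, 8.54% and 4.62%. The 27SB-preLSU value came mostly from a stop at nucleotide 3, with a single nucleotide TCR of 9.22% with MNase-rpL5, 2.94% with MNase-rpL27, 7.02% with MNase-rpL35 and 2.80% in the control. At nucleotide 1 the single TCR was at most 0.401% in this purification, against 43.5% to 58.1% in 25S-preLSUs. In 27SB pre-rRNA this end is not yet formed, because ITS2 is still attached.

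A further landmark is A645, an adenine methylated at its base-pairing face (m1A645) by the methyltransferase Rrp8. The highest single stop lay 1 nucleotide before it in the direction of synthesis, at 646, with 96.7% to 97.4% in the 4 libraries of 27SB-preLSUs and 91.1% to 92.4% in those of 25S-preLSUs. The window centred on A645 gave 98.95% to 99.4% and 95.9% to 98.3%. Of the cDNAs that passed 646 and covered A645, between 52.3% and 58.8% ended at A645 in 27SB-preLSUs. In 25S-preLSUs this was 66.8% to 69.9% with the fusions and 49.9% without MNase. At 644 the 25S-preLSU library without MNase also stood apart, with 7.42% against 28.5% to 32.0% with the fusions.

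Just behind A645, a stop at 651 divided the 27SB-preLSU libraries, named after its value was seen. Its single nucleotide TCR was 10.3% with MNase-rpL27 and 8.53% without MNase, against 1.20% with MNase-rpL5 and 2.23% with MNase-rpL35. In 25S-preLSUs it was between 0.109% and 0.181% in all 4 libraries. The stop needs no nuclease, and it shows the pairing of libraries described above.

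Further stops without MNase were counted where the library without MNase had a TCR of at least 15% and more than 5 times the noise. In 27SB-preLSUs, 1.95% of the 3786 nucleotides of 5.8S rRNA, ITS2 and 25S rRNA met this, and in 25S-preLSUs 2.85%. The members' nucleotides joined to 8 stops in 27SB-preLSUs and 12 in 25S-preLSUs, the 5′ ends and A645 among them. The strongest further stop of 27SB-preLSUs was at 5.8S rRNA nucleotide 111, with 39.0% with MNase-rpL5, 17.5% with MNase-rpL27, 5.76% with MNase-rpL35 and 27.7% in the control. All 4 libraries stopped there above the noise of 3.52%, MNase-rpL35 the least. At 5.8S nucleotide 33 the values were 14.1%, 16.2%, 12.1% and 24.9%, against a noise of 3.92%. In 25S-preLSUs nucleotide 33 had 16.0% without MNase, and 0% to 2.53% with the fusions, below the noise of 3.92%.

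In domain I, the stop at 440 had 32.1% with MNase-rpL5, 22.2% with MNase-rpL27, 21.5% with MNase-rpL35 and 27.4% in the control in 27SB-preLSUs. In 25S-preLSUs it had 13.8%, 3.94%, 14.4% and 39.6%. In the same order, the stop at 114 had 21.2%, 12.1%, 12.6% and 16.9% for 27SB-preLSUs and 14.1%, 6.93%, 16.3% and 40.3% for 25S-preLSUs. At both stops the library without MNase lay within the range of the fusions in 27SB-preLSUs and more than 2 times above each of them in 25S-preLSUs. The same order was found near the 5′ end in 25S-preLSUs. At nucleotide 16, the library without MNase had 43.2% and the fusions 6.99% to 15.8%, at 11 it had 34.3% against 4.31% to 11.6%, and at 43 it had 32.1% against 4.56% to 10.3%. In 27SB-preLSUs, nucleotides 11, 16 and 43 had 1.38% to 8.96% in all libraries.

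Cleavage was called where a fusion had a TCR of at least 15%, more than 5 times the noise and more than 5 times the library without MNase of its purification, and where the nucleotide lay more than 2 nucleotides from a 5′ end or a modified base that blocks reverse transcriptase. In 5.8S rRNA and domain I, the fusions differed by precursor. In 27SB-preLSUs no nucleotide was called with MNase-rpL5 or MNase-rpL27, against 0.106% and 0.238% of all 3786 nucleotides. With MNase-rpL35, 6 nucleotides at 2 sites were called, 0.737% of the 814, against 0.396% of all. In 25S-preLSUs, 3 nucleotides at 1 site were called with MNase-rpL5 (0.369% of the 814, 0.317% of all), 8 at 2 sites with MNase-rpL27 (0.983%, 0.792% of all) and 5 at 1 site with MNase-rpL35 (0.614%, 0.502% of all). Each of these shares is close to its background except that of MNase-rpL35 in 27SB-preLSUs, which is 6 against 15 of the 3786 nucleotides and carries no test.

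All 6 site calls fell at 3 places, near nucleotide 81 of 5.8S rRNA, near nucleotides 248 to 250 of 25S rRNA and at nucleotide 479 of 25S rRNA. They remained when the library without MNase of the other purification, or the higher of both, was taken as the background. The other purification's library added 5.8S 111 with MNase-rpL5 and 5.8S 112 and 138 with MNase-rpL27 in 27SB-preLSUs, and 25S nucleotide 4 with each fusion in 25S-preLSUs. These additions are stops that the library of the same purification also shows.

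**Figure D2:**
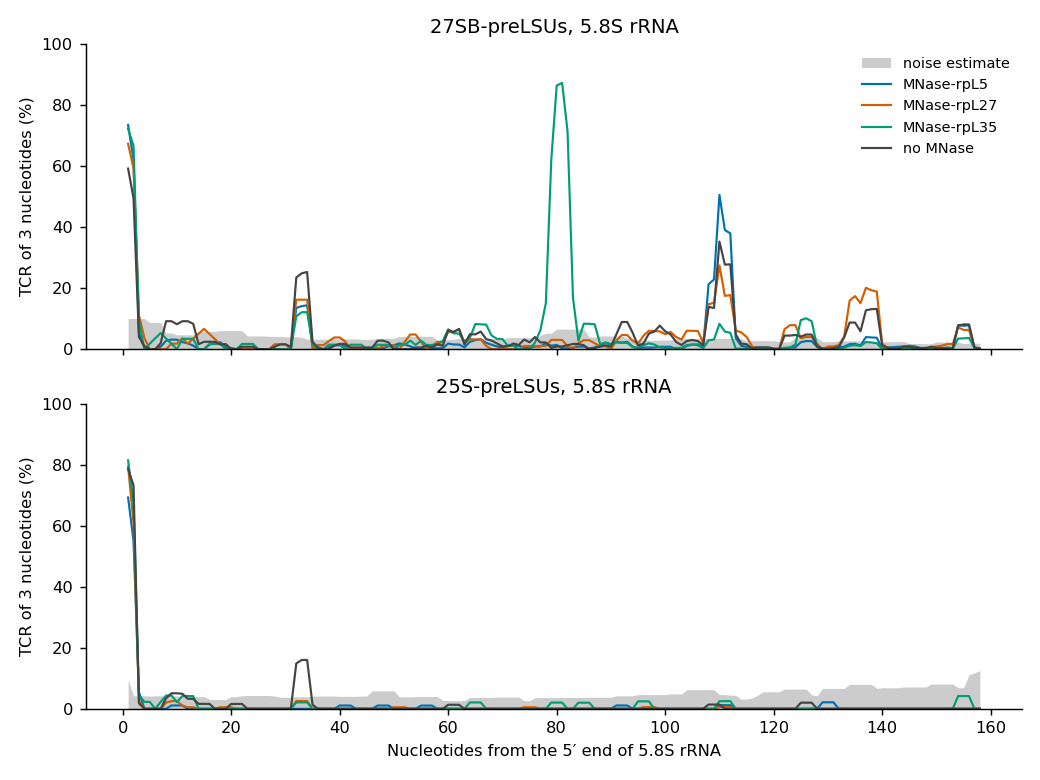
TCR of 3 nucleotides in percent along 5.8S rRNA (nucleotides from its 5′ end) in 27SB-preLSUs, top, and 25S-preLSUs, bottom, by library, with the noise estimate in grey. In 27SB-preLSUs only MNase-rpL35 gave a peak at 81 (87.2%), while the stops at 1, 33 and 111 appear in several libraries; in 25S-preLSUs hardly any nucleotide beyond the 5′ end is above the noise.

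The 5.8S rRNA carried the strongest cut that was called in 27SB-preLSUs in this region. At nucleotide 81 (chromosome XII, 455491) the TCR was 87.2% with MNase-rpL35, 3.03% with MNase-rpL27, 0.282% with MNase-rpL5 and 0.877% without MNase, at a noise of 6.59%. MNase-rpL35 was thus 13.2 times the noise, and the 3 other libraries were below it. The next highest fusion, MNase-rpL27, was 28.8 times lower. Centred on A80, the first of the pair A80 and U81, the values were 86.4%, 3.03%, 1.41% and 0.877%. In single nucleotides, the stops with MNase-rpL35 were spread over several positions, with 56.2% at 80, 65.7% at 81 and 15.2% at 82. Since the ratio is taken over the cDNAs that reach a nucleotide, these values do not add up to a total. Over nucleotides 78 to 83 together, 89.1% of the covering cDNAs ended with MNase-rpL35, against 1.41% with MNase-rpL5, 4.04% with MNase-rpL27 and 1.75% without MNase.

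In 25S-preLSUs the table lists 2.04% at nucleotide 80 with MNase-rpL35 and 0 in the other 3 libraries, at a noise of 3.66%. This is below the noise. The site lies just before nucleotide 84, the last at which a cDNA on free 5.8S rRNA could end under the insert limit. Only cDNAs primed close to the 3′ end of 5.8S rRNA could be kept with a stop here. Cleavage at this site in 25S-preLSUs was therefore not measurable in these libraries. The paper, which also read cuts by targeted primer extension, reports cleavage by MNase-rpL35 around this site at similar intensity in both precursors. Whether the cut is weaker in 25S-preLSUs could not be tested with the values listed here.

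Around this cut, further values with MNase-rpL35 passed a weaker limit of at least 5%, more than 2 times the noise and more than 2 times the library without MNase. By this limit 23 nucleotides of the 814 were called with MNase-rpL35 in 27SB-preLSUs, 2.83% against 1.06% of all 3786, and 11 of the 23 lay in 5.8S rRNA. Nucleotide 86 of 5.8S rRNA had 8.32% with MNase-rpL35, 2.94% with MNase-rpL27, 0.28% with MNase-rpL5 and 0 without MNase, at a noise of 3.98%. Nucleotide 126 had 10.1% with MNase-rpL35, 4.00% with MNase-rpL27, 2.66% with MNase-rpL5 and 4.81% without MNase, at a noise of 3.81%. Nucleotide 86 sits only just over the limit for the noise, at 2.09 times, and nucleotide 126 only just over that for the library without MNase, at 2.11 times. Nucleotide 67, which the rule for named sites left out, had 8.05% with MNase-rpL35 and at most 3.32% in the other libraries. Most of the 8.05% was the stop at 66, with a single TCR of 5.88% with MNase-rpL35.

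The second part of 5.8S rRNA showed another order of the libraries. At nucleotide 136, MNase-rpL27 had 15.1%, the library without MNase 5.85%, MNase-rpL5 1.18% and MNase-rpL35 1.04%, at a noise of 2.74%. Most of this was a stop at 135, where the single TCR was 12.2% for MNase-rpL27, 5.38% in the control, 0.945% for MNase-rpL5 and 0.645% for MNase-rpL35. The control thus had the stop at 135 as well, at a lower value. Nucleotide 138 lies outside the window of 136. Its own window had 19.3% with MNase-rpL27, 13.1% without MNase, 3.85% with MNase-rpL5 and 2.20% with MNase-rpL35. From nucleotide 85 on, 26 of 74 nucleotides had at least 5% with MNase-rpL27 and 21 without MNase, but 8 with MNase-rpL5 and 9 with MNase-rpL35. The higher pair is the one described above for this purification.

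**Figure D3:**
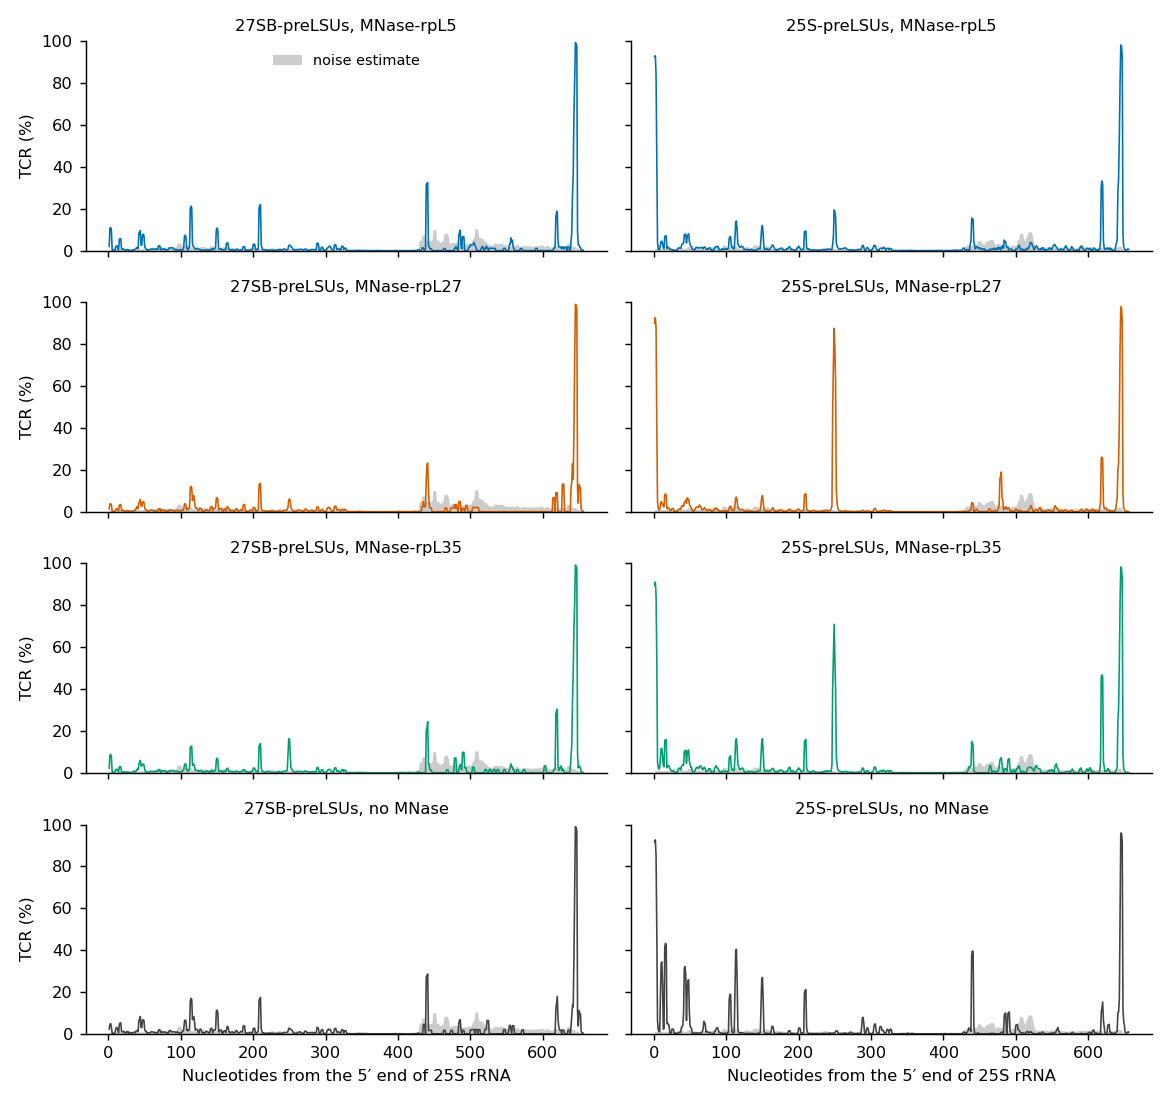
TCR of 3 nucleotides in percent along domain I (nucleotides from the 5′ end of 25S rRNA) for the 4 libraries of 27SB-preLSUs, left, and 25S-preLSUs, right, with the noise estimate in grey. The peak at U249 to 250 is highest with MNase-rpL27 and MNase-rpL35 in 25S-preLSUs, the 5′ end peak is present only in 25S-preLSUs, and the peak at A645 is present in all 8.

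In domain I the main cut lay at U249 and U250 (chromosome XII, 454933 and 454932), in an internal loop between neighbouring helices. In 25S-preLSUs the window centred on 250 had 18.6% with MNase-rpL5, 78.2% with MNase-rpL27, 54.7% with MNase-rpL35 and 0.464% in the control, at a noise of 0.558%. In 27SB-preLSUs it had 2.57%, 6.08%, 16.2% and 2.69%, at a noise of 0.944%. All 3 fusions were thus far above the library without MNase in 25S-preLSUs, by 40.1 times for MNase-rpL5, 169 times for MNase-rpL27 and 118 times for MNase-rpL35. In 27SB-preLSUs MNase-rpL35 was 6.04 times and MNase-rpL27 2.26 times as high as the library without MNase, while MNase-rpL5 was at 0.957 times. The call of MNase-rpL5 in 25S-preLSUs and that of MNase-rpL35 in 27SB-preLSUs were lost when the stop nucleotide was taken by itself, when the highest of the 3 values was taken and at a minimum TCR of 25%, and the latter also at 10 times the noise and the library without MNase. The calls of MNase-rpL27 and MNase-rpL35 in 25S-preLSUs held under each of these settings.

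The order of the fusions differed between the precursors. In 25S-preLSUs MNase-rpL27 was highest, 1.43 times MNase-rpL35. In 27SB-preLSUs MNase-rpL35 was highest, 2.67 times MNase-rpL27. From 27SB-preLSUs to 25S-preLSUs the TCR at 250 was 12.9 times higher with MNase-rpL27, 7.25 times with MNase-rpL5 and 3.37 times with MNase-rpL35, and 0.173 times as high without MNase. With 1 library per condition, neither order can be set against a spread between replicates.

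Single nucleotides resolved the cut further. With MNase-rpL27 in 25S-preLSUs, the TCR was 1.86% at 247, 47.0% at 248, 44.9% at U249, 57.8% at 250 and 6.48% at 251. With MNase-rpL35 it was 3.38%, 38.6%, 27.3%, 34.9% and 4.39%. With MNase-rpL5 it was 0.149%, 2.74%, 4.29%, 13.4% and 1.76%. The stops of MNase-rpL27 and MNase-rpL35 were spread over 248 to 250, whereas those of MNase-rpL5 were highest at 250, and the highest single nucleotide of MNase-rpL35 was 248. In 27SB-preLSUs, MNase-rpL35 had 0.776% at 248, 8.34% at U249 and 7.77% at 250, and MNase-rpL27 had 0.541%, 1.50% and 3.77%. With MNase-rpL35 the stop at 248 was thus below the noise of its nucleotide in 27SB-preLSUs, and the highest nucleotide was U249.

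Over nucleotides 246 to 252 together, 89.1% of covering cDNAs ended with MNase-rpL27, 74.0% with MNase-rpL35, 22.0% with MNase-rpL5 and 1.36% without MNase in 25S-preLSUs. In 27SB-preLSUs the totals were 7.62%, 17.9%, 3.70% and 3.80%. The total with MNase-rpL5 in 27SB-preLSUs thus did not exceed that of the library without MNase. Most covering cDNAs of 25S-preLSUs with MNase-rpL27 or MNase-rpL35 stopped within these 7 nucleotides, and only the remainder could read on towards the 5′ end. Random priming can also start between the 5′ end and the cut, and the share of such cDNAs is not listed.

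**Figure D4:**
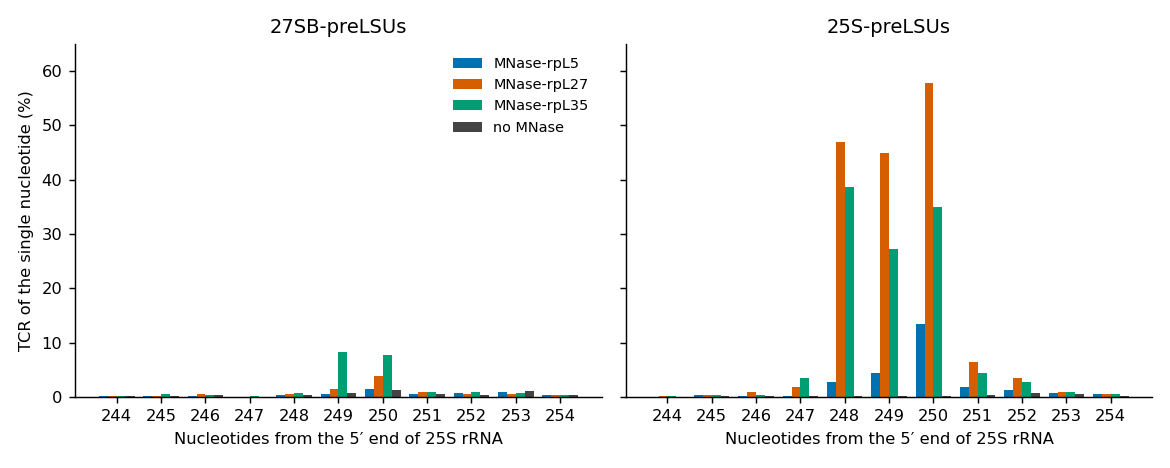
TCR of each single nucleotide in percent from 244 to 254 of 25S rRNA (nucleotides from the 5′ end) as bars by library, in 27SB-preLSUs, left, and 25S-preLSUs, right. In 25S-preLSUs, MNase-rpL27 and MNase-rpL35 stop at 248, U249 and 250 and MNase-rpL5 mostly at 250, and in 27SB-preLSUs the highest bar is 8.34% at U249 with MNase-rpL35.

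Another site was called with 1 fusion only. At nucleotide 479 (chromosome XII, 454703), in the large expansion segment of domain I, the TCR in 25S-preLSUs was 16.9% with MNase-rpL27, 6.74% with MNase-rpL35, 0.417% with MNase-rpL5 and 0.19% without MNase, at a noise of 3.05%. MNase-rpL27 was 2.51 times MNase-rpL35 there and 5.55 times the noise, just over the limit. Most of the stop was at 479 itself, with a single TCR of 13.4% for MNase-rpL27 and 3.45% for MNase-rpL35. In 27SB-preLSUs the window had 1.72% with MNase-rpL27, 7.04% with MNase-rpL35, 0.99% with MNase-rpL5 and 0 without MNase, at a noise of 4.09%. Only the value of MNase-rpL35 was above the noise in 27SB-preLSUs, by 1.72 times. As at 250, MNase-rpL27 was the higher of both in 25S-preLSUs and MNase-rpL35 in 27SB-preLSUs. This stretch has the highest noise of domain I, and the call was lost when the minimum TCR was set to 25%, when 10 times the noise and the library without MNase was asked for, or when the stop nucleotide alone or the maximum of 3 nucleotides was used.

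**Figure D5:**
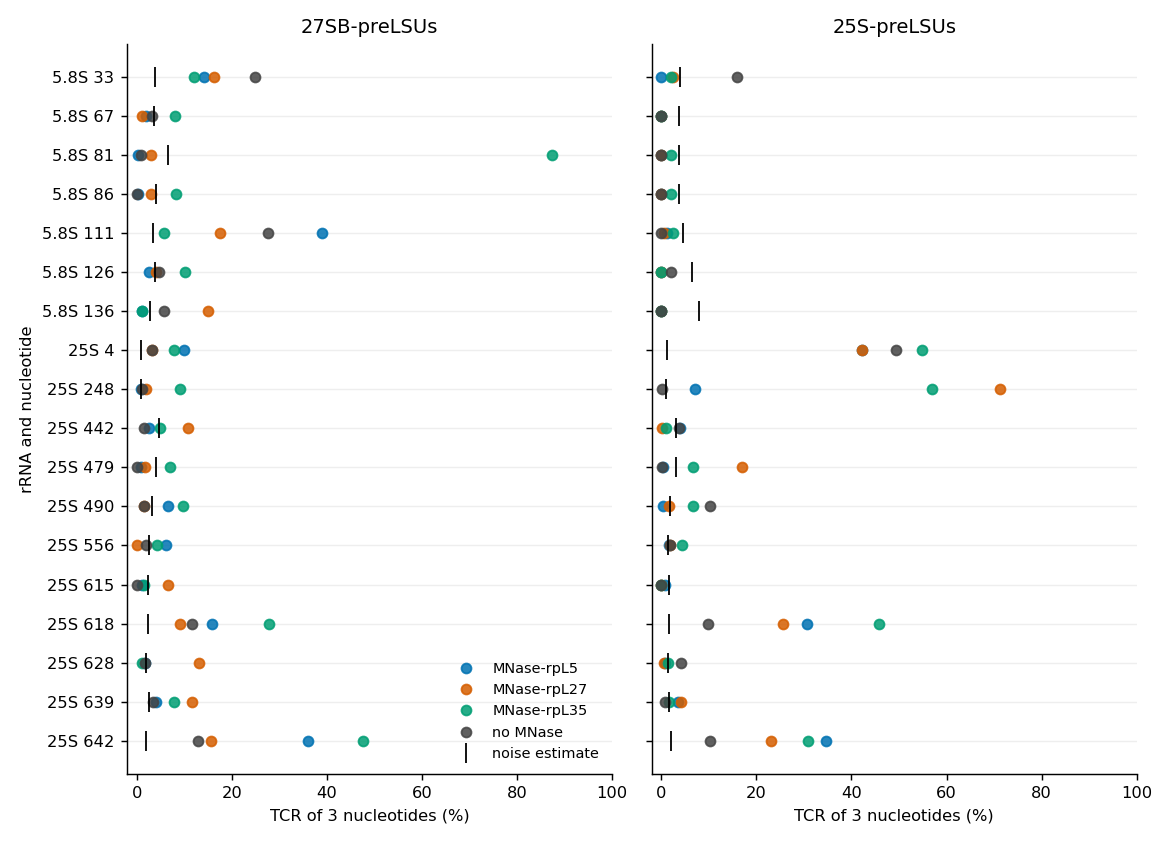
TCR of 3 nucleotides in percent at named nucleotides of 5.8S and 25S rRNA, by library, in 27SB-preLSUs, left, and 25S-preLSUs, right, with the noise estimate as a vertical mark. At 81 of 5.8S rRNA only MNase-rpL35 stands out (87.2%), at 248 of 25S rRNA all 3 fusions exceed the library without MNase in 25S-preLSUs, and at 618 and 642 all fusions and the library without MNase are above the noise in both precursors.

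By the weaker limit, calls in the remaining libraries were few. In 27SB-preLSUs, 3 nucleotides passed with MNase-rpL5 (0.369% of the 814, 0.845% of all 3786) and 12 with MNase-rpL27 (1.47%, 0.924% of all). In 25S-preLSUs, 10 passed with MNase-rpL5 (1.23%, 1.24% of all), 16 with MNase-rpL27 (1.97%, 1.69% of all) and 14 with MNase-rpL35 (1.72%, 1.90% of all). In 25S-preLSUs the region thus held about its share of such nucleotides, those of the called cuts included. Besides the sites above, 25S-preLSUs had only 2 weaker places, 619 and 642, and both passed with all 3 fusions.

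At nucleotide 619, 25S-preLSUs had 33.3% with MNase-rpL5, 26.1% with MNase-rpL27, 46.8% with MNase-rpL35 and 12.6% in the control, at a noise of 1.39%. In 27SB-preLSUs the values were 18.2%, 9.09%, 29.5% and 14.8%, at a noise of 2.46%. The fusions were 2.07 to 3.72 times the library without MNase in 25S-preLSUs, and 0.614 to 1.99 times in 27SB-preLSUs. The window centred on 618 also passed with MNase-rpL35 in 27SB-preLSUs, with 27.9% against 11.5% in the control, 2.42 times as high. No stop was listed at 618 itself in these 2 libraries, and the window's value is the same stop at 619. Against the 27SB-preLSU library without MNase, MNase-rpL27 no longer passed at 619 in 25S-preLSUs, but it did at 618.

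At nucleotide 642, 3 nucleotides from A645, 25S-preLSUs had 34.7% with MNase-rpL5, 23.2% with MNase-rpL27, 30.9% with MNase-rpL35 and 10.3% in the control, at a noise of 2.15%. In 27SB-preLSUs the values were 36.0%, 15.5%, 47.6% and 12.8%, at a noise of 2.01%. The window includes 643, which lies within 2 nucleotides of A645 and could not itself be called. With MNase-rpL35 in 27SB-preLSUs the single TCR was 25.8% at 643 and 25.4% at 642. In 27SB-preLSUs the high libraries, MNase-rpL5 and MNase-rpL35, are the pair described above, and both passed there. Against the 27SB-preLSU library without MNase, MNase-rpL27 no longer passed at 642 in 25S-preLSUs. Both 619 and 642 lie in the stretch read only from cDNAs that had spanned A645, and both are stops of the libraries without MNase as well.

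The other weaker sites of 27SB-preLSUs were called with 1 fusion each, except nucleotide 4, which was called with 2. With MNase-rpL27, nucleotide 628 had 13.2% against 1.08% to 1.75% in the other libraries, at a noise of 2.02%. Nucleotide 639 had 11.6% against 3.39% to 7.92%, the latter with MNase-rpL35, where it also passed and joined the site at 642, and 442 had 10.7% against 1.59% to 4.88%. The 11.6% with MNase-rpL27 is the stop at 640, and none was listed at 639 itself. Nucleotide 615 had 6.67% with MNase-rpL27, 1.61% with MNase-rpL35, 1.10% with MNase-rpL5 and 0 without MNase, at a noise of 2.46%. In 25S-preLSUs, MNase-rpL27 had 0.642% at 628, 4.11% at 639, 0.196% at 442 and 0 at 615. None of these 4 sites with MNase-rpL27 was thus seen again in the later precursor at its earlier height. Of the 44 nucleotides from 601 to 644, 36 were listed at 0 with MNase-rpL27 in 27SB-preLSUs. Few cDNAs may therefore lie behind the values at 615, 628 and 639.

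With MNase-rpL35 in 27SB-preLSUs, nucleotide 490 had 9.76%, MNase-rpL5 6.61%, MNase-rpL27 1.59% and the library without MNase 1.64%, at a noise of 3.33%. In 25S-preLSUs the highest value at 490 was that of the library without MNase, with 10.3%. With MNase-rpL5, nucleotide 556 had 6.12% in 27SB-preLSUs, against 4.29% with MNase-rpL35, 2.00% without MNase and 0 with MNase-rpL27, at a noise of 2.54%. No stop was listed at 556 itself with MNase-rpL5, so its value comes from the direct neighbours. Nucleotide 4 passed with MNase-rpL5 (9.87%) and MNase-rpL35 (7.76%), against 3.31% with MNase-rpL27 and 3.29% without MNase. Its window holds the stop at nucleotide 3 described with the 5′ end. At 490 and at 4 the high libraries are again MNase-rpL5 and MNase-rpL35, and the calls at both were lost against the 25S-preLSU library without MNase.

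The precursors were compared for each fusion and for the libraries without MNase. A difference was counted where the TCR differed more than 2 times and by more than both noise estimates, with the higher value at least 5%. In domain I, values higher in 25S-preLSUs were counted at 12 nucleotides with MNase-rpL5, 22 with MNase-rpL27, 29 with MNase-rpL35 and 36 in the control. These were 1.83%, 3.35%, 4.42% and 5.49% of the 656. Over all 3786 nucleotides this direction took 1.51%, 2.32%, 3.86% and 4.36%. Values higher in 27SB-preLSUs were counted in domain I at 15, 19, 2 and 10 nucleotides. These were 2.29%, 2.90%, 0.305% and 1.52% of the 656, with 1.82%, 4.36%, 1.98% and 3.14% over all. The libraries without MNase thus differed between the precursors at more nucleotides of domain I than did any fusion in the direction of higher values in 25S-preLSUs. With the stop nucleotide alone this order did not hold, at 14 with MNase-rpL35 and 13 in the control. A count of such nucleotides therefore does not set the fusions apart from the libraries without nuclease.

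For each library type the 5 largest differences are named. In domain I they lay at the 5′ end of 25S rRNA, at the cut at U249 and at stops that need no nuclease. At the 5′ end, nucleotide 4 was higher in 25S-preLSUs in all 4 library types, by 32.4 percentage points with MNase-rpL5, 38.9 with MNase-rpL27, 47.1 with MNase-rpL35 and 46.0 in the control. At U249 the window was higher in 25S-preLSUs by 17.1 points for MNase-rpL5, 81.9 for MNase-rpL27 and 54.8 for MNase-rpL35. The control had 2.50% there in 27SB-preLSUs but 0.305% in 25S-preLSUs, so the library without MNase went the other way. Among the stops that need no nuclease, 440 was lower in 25S-preLSUs with MNase-rpL5 (32.1% to 13.8%) and 441 with MNase-rpL27 (23.2% to 3.93%), while without MNase 16, 10 and 43 were higher in 25S-preLSUs by 38.0, 31.4 and 25.2 points. With MNase-rpL35, nucleotide 17 was higher in 25S-preLSUs by 12.9 points. With MNase-rpL27 the next differences of domain I were at 619, higher in 25S-preLSUs by 17.0 points, and at 480, beside the called site at 479, by 15.6 points.

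In 5.8S rRNA every difference counted was in favour of 27SB-preLSUs, at 10 nucleotides with MNase-rpL5, 28 with MNase-rpL27, 22 with MNase-rpL35 and 26 in the control. These were 6.33%, 17.7%, 13.9% and 16.5% of the 158, against 1.82%, 4.36%, 1.98% and 3.14% over all 3786. The largest were at 81 with MNase-rpL35 (87.2% against 2.04%), at 110 with MNase-rpL5 (50.6% against 1.19%) and at 110 without MNase (35.3% against 1.39%). At 110 MNase-rpL27 had 27.4% against 0.578%, and at 137 it had 20.1% against 0. With MNase-rpL5, nucleotide 34 had 14.4% against 0, and with MNase-rpL35 nucleotide 78, beside the cut at 81, had 15.1% against 0. The library without MNase thus showed this direction at more nucleotides of 5.8S rRNA than MNase-rpL5 and MNase-rpL35 and at fewer than MNase-rpL27. In 25S-preLSUs most nucleotides of 5.8S rRNA were listed at 0. Beyond nucleotide 84, cDNAs of free 5.8S rRNA fell under the insert limit, so stops at 110 or 137 could hardly be read there. The cut at 81 was not measurable in these 25S-preLSU libraries. The differences at 78, 81, 110 and 137 therefore do not compare cleavage between the precursors. The part of the nucleotides listed at 0 in the remaining counts was not tested.

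The likeness of whole profiles was described by Spearman's rho across nucleotides of domain I above the noise in at least 1 library of a purification. These nucleotides share the priming and coverage of their library, so the values carry no test. In 25S-preLSUs, over 250 nucleotides, MNase-rpL27 and MNase-rpL35 were most alike (rho 0.862), and MNase-rpL5 had 0.714 to MNase-rpL27 and 0.730 to MNase-rpL35. The library without MNase was least like the fusions, with 0.560 for MNase-rpL5, 0.484 for MNase-rpL27 and 0.568 for MNase-rpL35. In 27SB-preLSUs, over 179 nucleotides, MNase-rpL5 and MNase-rpL35 were most alike (0.822), followed by MNase-rpL5 and no MNase (0.769). MNase-rpL27 and MNase-rpL35 had 0.642 there. The pair of fusions with the strongest cut at 250 in 25S-preLSUs was the most alike over domain I there, while in 27SB-preLSUs it was not. The windows of that cut were among the nucleotides compared, so this likeness is not independent of the cut.

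In the rest of 25S rRNA the order in 25S-preLSUs was the same at its top, with 0.858 for MNase-rpL27 and MNase-rpL35 over 883 nucleotides. In 27SB-preLSUs the highest values there were 0.830 for MNase-rpL27 and no MNase and 0.828 for MNase-rpL5 and MNase-rpL35, over 784 nucleotides. In domain I, MNase-rpL27 and no MNase had 0.603. In 5.8S rRNA of 27SB-preLSUs, over 72 nucleotides, MNase-rpL5 and no MNase had 0.741, MNase-rpL27 and no MNase 0.556 and MNase-rpL35 and no MNase -0.00854. The profile of MNase-rpL35 over these nucleotides was thus unlike that of the library without MNase, and its rho with MNase-rpL27 was -0.245. The 72 include nucleotides that exceeded the noise with MNase-rpL35 alone, such as 81. Such a choice can itself lower rho, and its part in these values was not tested.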

How the data were processed

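RNA of 8 calcium-treated precursor fractions was read by random primer extension and paired end sequencing. The authors mapped reads with Bowtie2 to the rDNA region (R64 and sacCer3 are named in the submitters' notes, with no version of the mapper), kept inserts of at least 75 nucleotides, corrected for amplification with random barcodes and deposited the TCR of each nucleotide and a noise estimate as a fraction. The table holds no coverage, so depth was not known directly and no intervals were set. For each window of 3 nucleotides the shares of cDNAs reading through were multiplied and the result subtracted from 100%; the written formula lacks this inner step. Neighbouring windows that passed, up to 2 nucleotides apart, were merged. The site is, among the centres of these windows, the nucleotide with the highest single TCR. A named site can therefore lie directly beside the stop that its window holds. Named are the study's sites, every called site, up to 5 weaker sites and further stops per library or purification, and up to 5 nucleotides with the largest difference. Members, limits and lists were chosen with earlier results of these data known. The calling code was tested on simulated data. Computations used Python 3.11.15, numpy 2.4.6, pandas 2.3.3, scipy 1.17.1 and matplotlib 3.10.9.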

Additional observations from a re-analysis of the deposited data

How the results depend on the processing

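The calls at 5.8S 81 with MNase-rpL35 in 27SB-preLSUs and near 25S 250 with MNase-rpL27 and MNase-rpL35 in 25S-preLSUs were made under every setting tried. Those lost below are U249 of 25S rRNA with MNase-rpL35 in 27SB-preLSUs, 250 with MNase-rpL5 and 479 with MNase-rpL27. For each family of counts, a value over 1.5 times off the one reported is given. With the stop nucleotide alone or the maximum of 3 nucleotides, called sites numbered 1 with MNase-rpL35 in 27SB-preLSUs, 0 with MNase-rpL5 and 1 with MNase-rpL27 in 25S-preLSUs. The same numbers were found at a minimum TCR of 25%. With 10 times noise and library without MNase, MNase-rpL35 in 27SB-preLSUs and MNase-rpL27 in 25S-preLSUs kept 1 site each, and with 3 times MNase-rpL5 had 3 and MNase-rpL35 2 sites in 25S-preLSUs. A minimum of 10% gave 1 site with MNase-rpL27 in 27SB-preLSUs. Taking the library without MNase of the other purification, an alternative chosen after seeing the data, gave 1 site for MNase-rpL5 and 2 for MNase-rpL27 in 27SB-preLSUs, and 2 each for MNase-rpL5 and MNase-rpL35 in 25S-preLSUs.

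Weaker sites in 27SB-preLSUs with MNase-rpL5 numbered 1 with the stop nucleotide alone, at a minimum of 10%, at 3 times and at 5 nucleotides from other stops (added after seeing the data), and 0 at 5 times. With MNase-rpL27 they numbered 3 at 3 times and 1 at 5 times, and with MNase-rpL35 5 at a minimum of 10%, 3 at 3 times and 2 at 5 times. In 25S-preLSUs they numbered 1, 2 and 1 at 5 times, and with MNase-rpL35 7 at a minimum of 3% and 2 at 3 times. With the other library without MNase, MNase-rpL27 had 12 in 27SB-preLSUs, and MNase-rpL5 had 8 and MNase-rpL35 12 in 25S-preLSUs.

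Of the nucleotides higher in 25S-preLSUs (in the order MNase-rpL5, MNase-rpL27, MNase-rpL35, control), the stop nucleotide alone gave 6, 11, 14 and 13, and of those higher in 27SB-preLSUs 10, 13, 11 and 10. With 5 nucleotides, 82 with MNase-rpL27, 39 with MNase-rpL35 and 58 in the control were higher in 27SB-preLSUs and 56 without MNase in 25S-preLSUs. With the higher value at least 15%, 7 (MNase-rpL5) and 14 (MNase-rpL35) were higher in 25S-preLSUs and 12, 16, 6 and 4 in 27SB-preLSUs. A ratio over 3 gave 15 with MNase-rpL5 in the latter direction. After subtraction of the library without MNase, 10, 11 and 15 were higher in 27SB-preLSUs, and in 25S-preLSUs 10 were higher for MNase-rpL35. The cause of these moves was not tested. No paired analysis was possible because each condition has 1 library. In 5.8S rRNA of 25S-preLSUs and between nucleotides 401 and 644 of domain I, the noise and the many nucleotides listed at 0 limit what could be seen.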
